A study of Homo sapiens with 8 samples.

Results

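The response of THP-1 cells to an LSD1 inhibitor was compared between 24 and 72 h of treatment, gene by gene. The measure was the log2 ratio of inhibitor over vehicle at 72 h minus the same ratio at 24 h, called the change of response here. It was taken over the genes whose mean level in each pair of libraries reached 2 CPM, the read count scaled to the size of the library: 11153 of the 33045 gene names in the table. Of the others, 114 reached that level at 24 h only and 238 at 72 h only. At this limit SIRPD was the last gene inside (mean 2.001 CPM at 24 h) and FAM13A the first outside (mean 1.998 CPM at 24 h).

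THP-1 is a monocytic acute myeloid leukemia line that carries a KMT2A fusion, and the study labelled it resistant to LSD1 inhibition. Cells received vehicle or DDP38003 at 0.5 µM for 24 or 72 h, and each of these 4 conditions was 1 RNA library. The inhibitor and vehicle libraries of a time form a pair, and no other agent or allele is given for any of them. The study's design text says that these were the first and last times at which an effect on the kinase mTOR followed LSD1 inhibition in this line. KASUMI-1, a line labelled sensitive, was treated in the same way for 6 and 72 h and serves as a side by side value.

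LSD1, the product of KDM1A, removes methyl groups from lysine 4 of histone H3 at enhancers and promoters. In myeloid cells it is held on DNA by the repressor GFI1 together with the corepressor RCOR1, and its inhibitors are known to raise genes that PU.1 and C/EBP factors drive in maturing monocytes. CD86 and ITGAM (CD11b) are commonly used as early readouts of that response, whereas the antibacterial proteins of mature monocytes are products of later stages.

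The 4 libraries held 35131884 to 43392502 counted reads. There was no replicate of any condition, so nothing below is a test and no p-value is given. A response was counted as called when it was at least 2-fold and the 95% counting interval of its ratio excluded equality, and a change of response likewise. These intervals cover counting error only and say nothing of how 2 cultures would differ. The libraries had the markers of the line: PTPRC was at 237 to 261 CPM, CD33 at 79.8 to 117, SPI1 at 131 to 177 and HOXA9 at 53.4 to 57.0. MEIS1 was near 0 (0.0241 to 0.113 CPM). Summed T cell markers came to at most 0.543 CPM, B cell markers to 2.92, erythroid to 0.0226 and fibroblast to 0.226. RUNX1T1, the fusion partner of KASUMI-1, was at 0.121 to 0.204. KDM1A itself was at 107 and 114 CPM (vehicle and inhibitor) at 24 h and at 112 and 93.9 at 72 h, and GFI1 at 221 and 347, then 254 and 330, and neither was called. The inhibitor blocks the protein, so these levels are no check of the treatment. In bulk RNA, fewer cells of a kind and less RNA per cell cannot be told apart.

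Most of the response that was present at 24 h was present at 72 h. At 24 h 297 genes were higher with inhibitor (2.66% of those measured) and 45 lower (0.403%). At 72 h 332 were higher (2.98%) and 149 lower (1.34%). These counts include genes that reached the 2 CPM mean through their higher library only and so had to differ. The genes higher at both times numbered 229 (2.05%), which is 77.1% of those higher at 24 h and 69.0% of those higher at 72 h. Those lower at both times numbered 31 (0.278%), 68.9% of the 24 h falls but 20.8% of the 72 h falls. Of the 149 genes lower at 72 h, 141 were already below equality at 24 h. Across the 11153 genes the ratios of both times had a Pearson r of 0.79 and a Spearman rho of 0.53. This is a description across genes, which are not independent replicates.

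**Figure D1:**
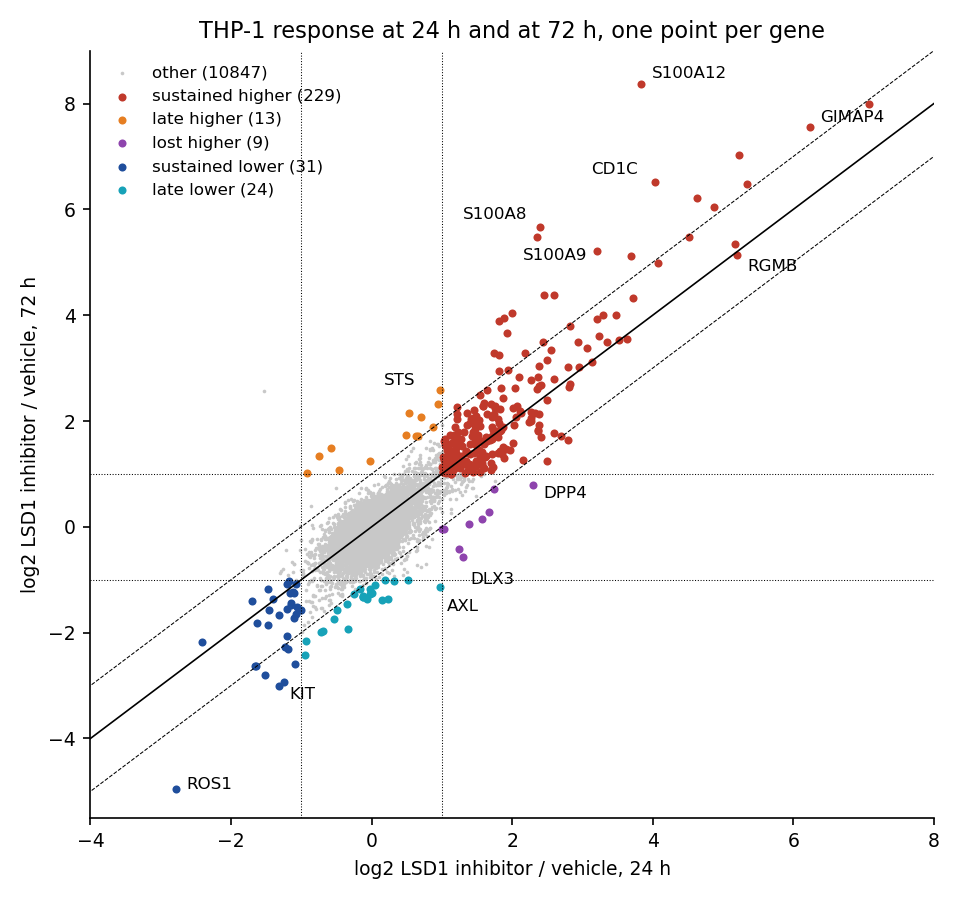
Log2 ratio of inhibitor over vehicle at 24 h (x axis) and at 72 h (y axis) for the 11153 genes, with colors for the classes. The solid line marks equal responses, the dashed lines a 2-fold change of response and the dotted lines a 2-fold response; S100A12, S100A8 and S100A9 lie far above the solid line, and the late lower genes lie under the band between the dashed lines.

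The change of response itself was 2-fold or more for few genes. It was upward for 39 genes (0.350%) and downward for 69 (0.619%), while 95% of all genes lay between -0.70 and 0.52 with a median of -0.02. Of the 39, 22 were sustained rises that grew and 13 (0.117% of genes) were rises that reached 2-fold at 72 h only, called late higher. There was also 1 fall no longer 2-fold at 72 h (0.00897%), called lost. The other changes were in 1 gene called in opposite directions at the 2 times (0.00897%) and 2 that were 2-fold at neither time. The gene called in opposite directions is a short feature without a current symbol and is not described further. Of the 69, 24 (0.215%) were falls that reached 2-fold at 72 h only, called late lower. Another 9 (0.0807%) were rises no longer 2-fold at 72 h, called lost. Late and lost genes could still differ from vehicle by less than 2-fold at the other time. The rest were 7 sustained falls that deepened, 2 sustained rises that shrank and 27 genes 2-fold at neither time. Another 254 genes (2.28%) were called at 1 time without a called change, so their timing was not resolved. On the 2-fold limit, HSPA6 (1.01) was the last upward gene inside and LDLRAD4 (0.98) the first outside, and NID1 (-1.01) and TGM4 (-0.999) were the neighbors on the downward side.

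The largest growth of a sustained rise was in the calprotectin genes and their neighbor, which encode calcium-binding proteins that neutrophils and monocytes release in inflammation. S100A12 stood at 3.89 CPM in vehicle and 56.3 in inhibitor at 24 h, and at 0.700 and 250 at 72 h. S100A8 went from 131 and 688 CPM to 51.3 and 2620, and S100A9 from 260 and 1332 to 124 and 5575. In all 3 the 72 h inhibitor library was the highest and the 72 h vehicle library the lowest, so both sides moved apart. The log2 response of S100A12 was 3.84 at 24 h and 8.38 at 72 h, a change of 4.54 (95% counting interval 4.04 to 5.17). The changes of S100A8 and S100A9 were 3.28 (3.20 to 3.35) and 3.13 (3.08 to 3.18).

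These 3 genes are neighbors: in the deposited table (NCBI36) they span 33.2 kb of chromosome 1, with S100A9 at 151596954 to 151600126 on the plus strand, S100A12 at 151612805 to 151614699 and S100A8 at 151629132 to 151630173, both on the minus strand. Their promoters are shown because the 3 transcripts had the largest upward changes among genes with a symbol. Each sequence below is the 250 bases before the gene's start in RefSeq (GRCh38.p14), read 5′ to 3′ on the gene's strand. They lie at chr1:153375622-153375871 for S100A12, chr1:153391189-153391438 for S100A8 (the first start listed) and chr1:153357604-153357853 for S100A9. Capitals mark matches on either strand to TTGCNNAA, a form of the site bound by C/EBP factors, or to GGAAGT, the core bound by PU.1 and other ETS proteins.
S100A12: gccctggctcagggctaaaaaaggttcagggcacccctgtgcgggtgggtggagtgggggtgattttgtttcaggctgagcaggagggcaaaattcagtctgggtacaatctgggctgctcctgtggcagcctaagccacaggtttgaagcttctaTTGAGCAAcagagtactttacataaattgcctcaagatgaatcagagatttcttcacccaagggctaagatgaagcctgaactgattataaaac
S100A8: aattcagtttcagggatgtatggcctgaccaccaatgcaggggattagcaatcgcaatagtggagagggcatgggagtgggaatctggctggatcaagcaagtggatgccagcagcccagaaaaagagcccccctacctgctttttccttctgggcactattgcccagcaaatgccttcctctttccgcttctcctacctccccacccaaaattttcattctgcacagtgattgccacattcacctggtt
S100A9: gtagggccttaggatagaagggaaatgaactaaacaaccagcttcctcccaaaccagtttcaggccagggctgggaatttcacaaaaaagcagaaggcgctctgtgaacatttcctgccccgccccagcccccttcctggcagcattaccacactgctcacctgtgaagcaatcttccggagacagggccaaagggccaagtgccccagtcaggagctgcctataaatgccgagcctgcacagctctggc
Only the S100A12 window holds a match, 1 to TTGCNNAA, and none of the 3 holds GGAAGT. Of the 8696 measured genes with a promoter in that table, 6.03% had a TTGCNNAA match in the same window and 25.3% a GGAAGT match. Among the 173 matched sustained rises the shares were 10.98% and 20.2%, and among the 25 matched sustained falls 12% and 16%. They were 9.09% and 13.6% among the 22 matched genes whose response moved upward, 7.27% and 16.4% among the 55 that moved downward, and 8.70% and 13% among the 23 late falls. A match describes these letters and no binding was measured.

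Other products of mature monocytes grew from a response already called at 24 h. LYZ, which encodes lysozyme, was at 896 and 4906 CPM at 24 h and at 536 and 11138 at 72 h. Its log2 response went from 2.45 to 4.38, a change of 1.92 (1.90 to 1.95). VCAN, a matrix proteoglycan made by monocytes, went from 5.19 and 48.4 CPM to 4.52 and 169, with vehicle nearly level and a change of 2.005 (1.72 to 2.29). CYBB, the catalytic subunit of the phagocyte NADPH oxidase, was at 108 CPM with inhibitor at 24 h and 110 at 72 h, but its vehicle level was 17.7 and then 5.22, a change of 1.79 (1.57 to 2.02). For CYBB the larger response was thus in the vehicle library. CD86, the co-stimulatory ligand, was at 0.723 and 22.6 CPM and then at 0.580 and 41.5, a change of 1.17 (0.43 to 1.94).

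**Figure D2:**
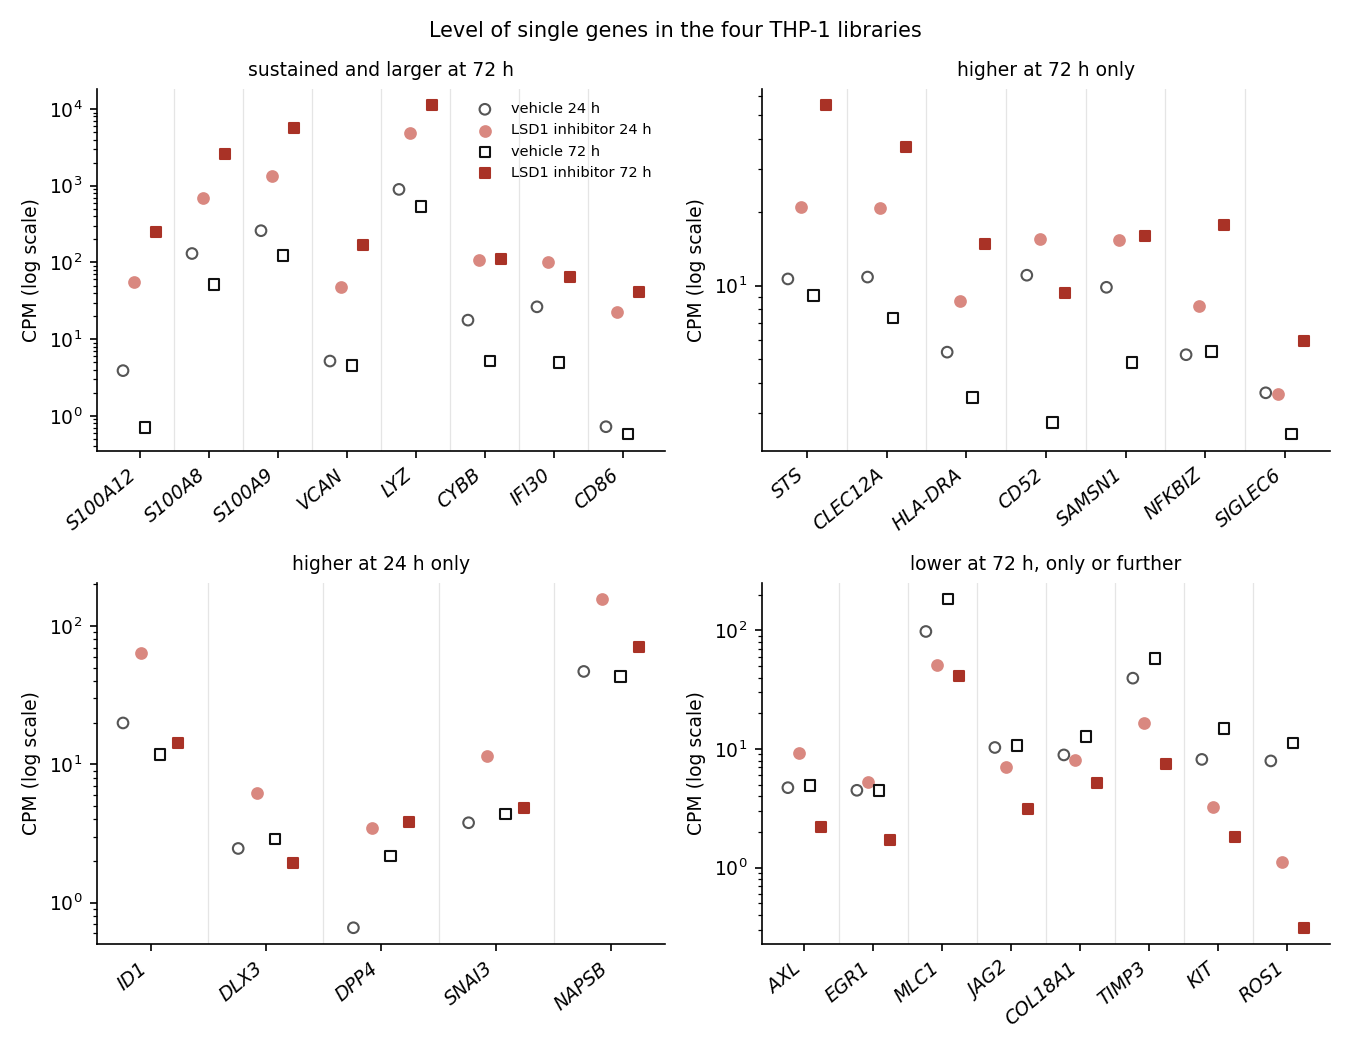
Level of single genes in CPM (log axis) in the 4 THP-1 libraries, 1 point per library, open for vehicle and filled for inhibitor. In the upper left panel the filled squares of S100A8, S100A9 and LYZ stand at 2620, 5575 and 11138 CPM; in the lower left panel ID1 falls back from 63.5 to 14.3 CPM with inhibitor.

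Several of the growing genes serve antigen uptake and presentation or interferon defense. IFI30, a lysosomal thiol reductase that prepares antigens, was at 26.4 and 100 CPM and then at 4.998 and 64.1, a change of 1.74 in which both libraries went down and vehicle more so. CD1C, which presents lipids, had 12 and 219 reads at 24 h and 2 and 323 at 72 h. With so few vehicle reads its response is given as a ratio: 19.4 (10.9 to 38.2) at 24 h and 190 (52.1 to 1574) at 72 h. LY96, through which TLR4 senses lipopolysaccharide, had 20 and 785 reads and then 3 and 572, ratios of 41.8 (26.9 to 68.8) and 224 (76.3 to 1090). GBP2, an interferon-induced GTPase, went from 0.830 and 3.49 CPM to 0.531 and 9.54, and TRIM22, an antiviral E3 ligase, from 188 and 624 reads to 136 and 1115. Their changes were 2.03 and 1.44.

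The remaining growing rises ranged from 1.01 to 2.08 in their change. They were SLC2A4, the insulin-responsive glucose transporter GLUT4 (2.08), CADM1, an adhesion molecule (2.06), SLC7A8, an amino acid exchanger (1.59), CLEC5A, a myeloid lectin receptor (1.54), MCUB, a subunit of the mitochondrial calcium uniporter (1.42), IGSF6 (1.13), MPEG1, a pore-forming macrophage protein (1.11), EPB41L3 (1.06), NEGR1 (1.04) and HSPA6 (1.01). HSPA6 has a near-identical copy, HSPA7, so its counts are uncertain. CLEC5A and EPB41L3 were lower at 72 h than at 24 h in both libraries, by more in vehicle.

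A larger set of rises was held at one level. Of the 229 sustained rises, 205 had no called change and 168 changed by less than 1.5-fold. RGMB, a co-receptor of bone morphogenetic proteins, was at 0.255 and 11.3 CPM at 24 h and at 0.266 and 11.1 at 72 h, log2 responses of 5.20 and 5.13. ITGAM was at 9.38 and 66.1 CPM and then at 9.34 and 58.5, responses of 2.81 and 2.64. The pairs of libraries of these genes lie close to each other. KCNK13, a potassium channel (4.52 and 5.49), FCGR2B, the inhibitory Fc receptor (4.08 and 4.996), and CD14, the lipopolysaccharide co-receptor (2.04 and 2.62 at no more than 3.83 CPM), were sustained rises whose change was not called. GIMAP4, a GTPase of lymphoid cells, had 7 and 664 reads and then 2 and 660, ratios of 101 (48.7 to 252) and 388 (107 to 3209). The intervals of its ratios overlap, and its change was not called.

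Late rises were few and mostly began as a smaller rise at 24 h. STS, the steroid sulfatase gene on chromosome X (7147472 to 7282682, NCBI36), was at 10.7 and 20.9 CPM at 24 h and at 9.10 and 54.9 at 72 h, log2 responses of 0.97 and 2.58. CLEC12A, an inhibitory lectin receptor of myeloid cells, went from 10.9 and 20.9 CPM to 7.36 and 37.1 (0.94 and 2.33), and HLA-DRA, the alpha chain of an MHC class II molecule, from 5.34 and 8.70 to 3.48 and 14.8 (0.70 and 2.07). In each the inhibitor library went up and the vehicle library went down. NFKBIZ, a nuclear regulator of NF-kB, had a level vehicle (5.21 and 5.39 CPM) and an inhibitor level of 8.29 and then 17.8. SIGLEC6, a sialic acid-binding receptor, had equal levels at 24 h (3.64 and 3.60 CPM, then 2.46 and 5.93). It and CBR3, a carbonyl reductase (0.53 and 2.16), and SNX25 (0.87 and 1.89) fell outside the naming rule and were singled out after their values were seen. For SNX25 the larger part of the change lay in vehicle (2.64 and then 1.64 CPM, with 4.87 and then 6.21 in inhibitor).

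For CD52 and SAMSN1 the inhibitor library was not higher at the later time by more than 1.5-fold, and the vehicle library was lower. CD52, a surface glycoprotein of leukocytes, was at 11.04 and 15.6 CPM at 24 h and at 2.75 and 9.34 at 72 h, so it was lower at 72 h in both libraries. SAMSN1, an adaptor of hematopoietic cells, was at 9.85 and 15.4 CPM and then at 4.83 and 16.0. Their responses went from 0.49 to 1.74 and from 0.64 to 1.72.

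The other 4 of the 13 late rises were names without a current symbol, and all were below equality at 24 h. SSU_rRNA_5, by its name a small-subunit ribosomal RNA, was at 433 and 315 CPM at 24 h and at 253 and 535 at 72 h. AC112777.7 (231 and 137, then 116 and 292), AC044839.16-1 (81.0 and 42.9, then 44.3 and 89.9) and AL163011.3 (37.8 and 25.4, then 22.2 and 62.8) were likewise lower with inhibitor at 24 h and higher at 72 h. So was 7SK, a small nuclear RNA that was 2-fold apart at neither time but had a called change of 1.26. Reads on all names with rRNA in them were 0.0472% and 0.0329% of the libraries at 24 h and 0.0277% and 0.0539% at 72 h. The part of ribosomal RNA carry-over in the 4 late rises without a symbol was not tested.

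Rises that were no longer 2-fold at 72 h, called lost, included regulators of differentiation. ID1, an inhibitor of bHLH factors and a target of bone morphogenetic protein signaling, was at 19.9 and 63.5 CPM at 24 h and at 11.8 and 14.3 at 72 h. Its log2 response went from 1.67 to 0.28, a change of -1.39 (-1.60 to -1.19). Its relative ID3 was still higher at 72 h but less so (3.02 and 21.2 CPM, then 3.60 and 11.3; responses of 2.79 and 1.64). NAPSB, a transcribed pseudogene of an aspartic protease, went from 47.0 and 157 CPM to 43.0 and 70.3 (1.74 and 0.71), so it was still higher at 72 h. In these 3 the inhibitor library fell back while vehicle moved less.

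The other 7 lost rises and SLC15A3 were chosen after their values were seen. The homeobox gene DLX3 was at 2.47 and 6.18 CPM and then at 2.90 and 1.93, responses of 1.31 and -0.57, and SNAI3, a zinc finger repressor, had responses of 1.58 and 0.14. SHE (1.38 and 0.05), CNRIP1 (1.02 and -0.04) and SLC43A2, an amino acid transporter (1.01 and -0.04), also ended near equality. DPP4, a serine protease of the cell surface (CD26), kept its inhibitor level (3.44 and 3.80 CPM) while vehicle went from 0.659 to 2.17. It was still higher with inhibitor at 72 h, at a ratio of 1.75 (1.33 to 2.31). LINC03040, a non-coding RNA, was higher at 72 h in both libraries (1.40 and 3.397 CPM, then 8.62 and 6.47). For these 2 the downward change lay in the vehicle library, which went up. SLC15A3, a lysosomal peptide transporter, shrank from 2.49 to 1.25 and remained a sustained rise. The single lost fall was CACNB4, a calcium channel subunit, with responses of -1.02 and 0.01.

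Falls were the part of the response that grew most in number, from 45 genes at 24 h to 149 at 72 h. Of the 149, 31 were sustained, 24 were late and 94 were called at 72 h only without a called change. The 24 h ratio was already below equality for 141 of the 149. Their median change was -0.68, against -0.02 over all genes, though picking genes by a low 72 h ratio favors that sign. AXL, a receptor tyrosine kinase that clears dying cells (chromosome 19, 46416948 to 46459510, NCBI36), was at 4.72 and 9.28 CPM at 24 h and at 4.95 and 2.21 at 72 h. Its log2 response went from 0.97 to -1.14, a change of -2.11 (-2.57 to -1.69), with vehicle level. EGR1, an immediate-early transcription factor, was at 4.49 and 5.28 CPM and then at 4.49 and 1.70 (0.23 and -1.37). Here too the movement lay in the inhibitor libraries.

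The 8 largest late falls with at least 5 CPM in both pairs were these. MLC1, a membrane protein best known from astrocytes, went from 97.7 and 51.2 CPM to 183 and 41.2, responses of -0.93 and -2.15, with most of the change in vehicle. JAG2, a Notch ligand (-0.53 and -1.74), ADGRG5, an adhesion G protein-coupled receptor (-0.69 and -1.97), MMP15, a membrane-type matrix metalloproteinase (-0.11 and -1.32), CKAP4, a protein of the endoplasmic reticulum (-0.12 and -1.32), and COL18A1, the collagen that yields endostatin (-0.13 and -1.31), followed. DUSP9, a phosphatase of MAP kinases, went from -0.34 to -1.47 and PRKCH, a protein kinase C, from -0.50 to -1.57. The 14 late falls that the naming rule left out were MYOZ1, BCAR1, CAP2, CNR1, LRRC4, HSPB7, LPAR5, PYHIN1, ARHGEF16, NEO1, SEMA7A, PTPRH, ASIC1 and NID1, with changes from -1.60 (MYOZ1) to -1.01 (NID1).

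The 7 sustained falls that deepened were led by receptors and a protease inhibitor. ROS1, an orphan receptor tyrosine kinase, had 373 and 49 reads at 24 h and 464 and 11 at 72 h, responses of -2.78 and -4.95. KIT, the stem cell factor receptor of progenitors, went from 8.17 and 3.24 CPM to 14.9 and 1.82 (-1.32 and -3.01), and TIMP3, an inhibitor of metalloproteinases, from 39.5 and 16.6 to 57.5 and 7.52 (-1.25 and -2.93). In all 3 inhibitor went down and vehicle went up from 24 to 72 h. CEACAM6, an adhesion molecule of granulocytes (change -1.27), DSG2, a desmosomal cadherin (-1.05), COL4A5, a basement membrane collagen (-1.50), and LGALS12, a galectin (-1.12), were the others. Falls that held their level included SLC7A11, the cystine transporter (-1.62 and -1.82), MSRB3, a methionine sulfoxide reductase (-1.46 and -1.56), VIT (-1.47 and -1.86), THBS4 (-1.70 and -1.39) and CTSG, the granule protease cathepsin G (-1.06 and -1.51 at 473 to 1347 CPM).

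Because the change is a difference of 4 libraries, it was split into the 72 h over 24 h ratio of the inhibitor libraries and that of the vehicle libraries. Among the 39 upward changes the larger part lay in the inhibitor libraries for 26 genes and in the vehicle libraries for 13. Over these 39 genes the median log2 ratio of 72 h over 24 h was 1.07 with inhibitor and, taken separately, -0.67 with vehicle. Among the 69 downward changes the larger part lay in the inhibitor libraries for 57 genes and in vehicle for 12, with medians of -0.93 and 0.24. The vehicle libraries moved at least 2-fold opposite to the change for 13 of the 39 and 3 of the 69.

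**Figure D3:**
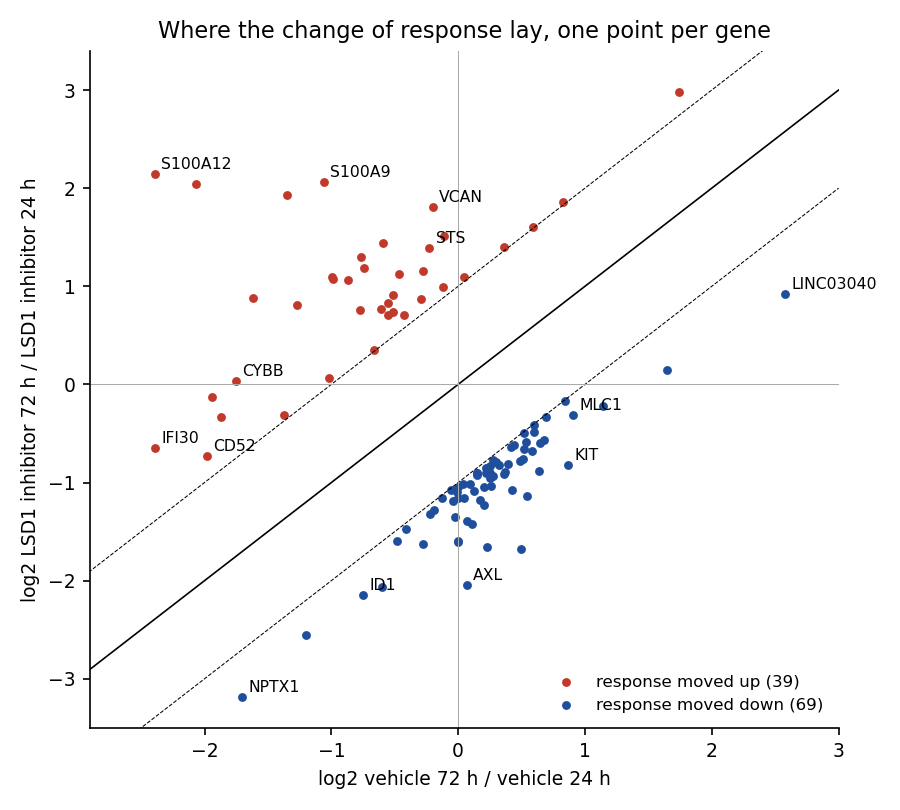
For each of the 108 genes with a called change of response, the log2 ratio of 72 h over 24 h in vehicle (x axis) and in inhibitor (y axis); the solid line marks no change of response and the dashed lines a 2-fold change. Downward genes gather near 0 in vehicle and below it in inhibitor, while CYBB and IFI30 owe their place to vehicle.

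The change of response followed the base composition of the transcripts. GC content, the share of G and C in the longest GENCODE transcript, had a value for 10616 of the 11153 genes (95.2%). The median change was 0.22 in the bin of lowest GC (median 35.4%) and -0.29 in that of highest GC (65.2%), and across genes Spearman's rho with GC was -0.52. It was 0.19 for the 24 h ratio and -0.28 for the 72 h ratio. For the 72 h over 24 h ratio it was 0.41 in the vehicle libraries and -0.16 in the inhibitor libraries. The median GC was 47.8% over all genes, 44.3% for upward changes, 58.0% for downward changes, 56.9% for late falls, 58.5% for lost rises and 60.6% for the 27 downward changes that were 2-fold at neither time. What library preparation contributed to this slope was not tested.

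When the ratios at each time were centred on the median of 20 GC bins, a choice made after the data were seen, the downward changes numbered 40 instead of 69, and 38 genes were in both sets. The falls then numbered 46 at 24 h and 124 at 72 h, instead of 45 and 149. Genes without a GC value were left as they were, which holds for 7 of the 39 upward changes and none of the downward ones. Of the 32 upward changes with a GC value, 27 remained. Of the 24 late falls 15 kept their class, AXL, EGR1, MLC1, ADGRG5, CKAP4 and PRKCH among them, while JAG2 (-0.96), MMP15 (-0.96), COL18A1 (-0.93) and DUSP9 (-0.88) ended short of a 2-fold change. Of the 9 lost rises 6 kept their class, with ID1 at -1.22 but NAPSB at -0.82. Of the 9 late rises with a GC value 6 did, SAMSN1 (0.90) and SNX25 (0.91) did not, and CLEC12A passed 2-fold at 24 h too. CACNB4 was no longer called. Of the 27 downward changes without a 2-fold response 9 remained. S100A12 (4.51), S100A8 (3.38), S100A9 (3.22), LYZ (1.82) and KIT (-1.79) moved little.

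**Figure D4:**
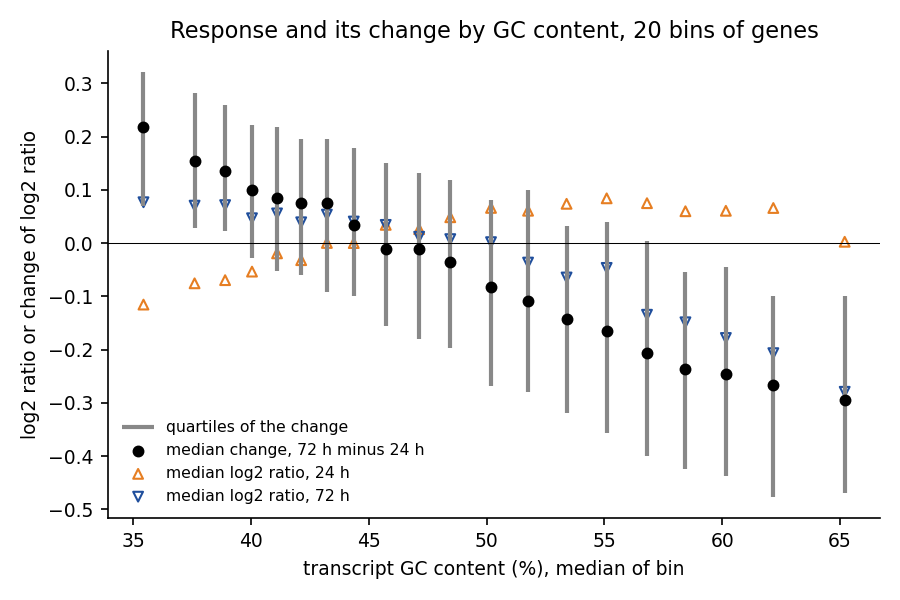
Median change of response (black points, with quartiles as bars) and median log2 ratio at 24 and 72 h (open triangles) in 20 bins of genes ordered by transcript GC content. The median change goes from 0.22 in the lowest bin to -0.29 in the highest.

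The 27 genes that moved downward without a 2-fold response at either time lay above equality at 24 h and below it at 72 h. This follows from how the set is defined and is no finding about its genes. They were not in the naming rule, apart from IER2, LAMB3 and COL8A2, and the following were picked for their values. NPTX1 (16.3 and 28.1 CPM, then 4.97 and 3.04) and the tyrosine kinase SRC (8.38 and 13.7, then 5.51 and 3.24) had changes of -1.48 and -1.46, and RGS16, a brake on G proteins, one of -1.36. NAB2, a corepressor of EGR proteins (0.87 and -0.23), the immediate-early gene IER2 (0.47 and -0.62) and BHLHE40, a bHLH repressor (0.64 and -0.45), were others of this set. With GC centring IER2 (-0.84) and NAB2 (-0.85) ended short of 2-fold.

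Gene lists were described by their counts, beside the background shares given above. Of 37 measured genes of monocyte and macrophage maturation, 17 were higher at 24 h and 15 at 72 h. The change was upward for 8 and downward for 2 (AXL and EGR1), and 4 were lower at 72 h: F13A1, TREM2, AXL and EGR1. The median response of that list was 0.64 and then 0.75, but its median change was -0.08, with 17 of the 37 changes above 0 and 20 below. CSF1R, the macrophage growth factor receptor (31.0 and 77.5 CPM, then 39.7 and 75.9), and NCF1, an oxidase subunit, were higher at 24 h but not called at 72 h (0.93 and 0.58), and their change was not called. NCF1 has near-identical pseudogenes, so its counts are uncertain.

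Of 12 measured genes of MHC class II and lipid antigen presentation, 7 were higher at 24 h and 8 at 72 h, and the change was upward for 3. CD1A and CD1C in this list, and GBP2 in the next, reached the 2 CPM mean through the inhibitor libraries only and had to differ. The median response went from 1.17 to 1.68, with 10 of 12 changes above 0. Of 39 measured interferon-response genes 7 were higher at 24 h and 6 at 72 h, and GBP2 and TRIM22 were the 2 upward changes. CMPK2, a nucleotide kinase, had responses of 0.83 and -0.01 and was never called. Of 19 cytokine and NF-kB genes the same number, 5, were higher at each time: TNF (2.37 and 1.82), IL1B (1.83 and 1.43), IL1RN (2.24 and 1.99), ICAM1 (2.59 and 1.78) and CCL2 (3.48 and 4.01). In vehicle ICAM1 (0.766 and 1.16 CPM) and CCL2 (1.96 and 0.338) were under 2 CPM at both times, and TNF (1.47) at 72 h. There they too reached the mean through the inhibitor libraries only and had to differ.

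Of 22 measured genes of ERK feedback and immediate-early response, 6 were higher at 24 h and 6 at 72 h, and 1 was lower at 72 h. The downward changes were EGR1 and IER2, and 19 of the 22 changes were below 0, against 5921 of 11153 genes. The median went from 0.49 to 0.10. The feedback genes SPRED1 (2.13 and 2.16) and ETV5 (1.54 and 1.46) were sustained, and SPRY4 had responses of 2.69 and 1.71 with a change just short of 2-fold. Of 18 matrix genes, proteases and inhibitors 3 moved downward (TIMP3, LAMB3 and COL8A2) and 1 upward (VCAN), and the median went from 0.25 to -0.25. The median GC of these 2 lists was 53.0% and 53.8%. With GC centring the downward changes were 1 and 2.

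The remaining lists held few called changes. Of 16 stem and progenitor genes KIT alone was called, and MYC was at 118 and 103 CPM and then at 130 and 90.1. Of 8 granule protein genes CTSG and CEACAM6 were lower at both times and CEACAM6 deepened. The lists of cholesterol and fatty acid synthesis (36 measured), LXR and PPAR lipid handling (18), ribosome biogenesis and MYC targets (47), S phase (49) and LSD1 and its partners (21) had no call at either time. Over all genes 2.66% were higher and 0.403% lower at 24 h, and 2.98% and 1.34% at 72 h. A single list of this size therefore says little by having no call. Of 45 genes of G2 and mitosis CDC25B alone was called, at 24 h (1.02). In cholesterol and fatty acid synthesis 28 of 36 changes were below 0, and FASN, the fatty acid synthase, was at 59.5 and 59.8 CPM at 24 h but at 165 and 85.3 at 72 h. Its response of -0.95 at 72 h came with a vehicle level that was higher at the later time.

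The lists of mTOR regulation, ATF4 and amino acid supply, glycolysis and hypoxia, and lysosome and autophagy held no called change of response. Over all genes measured 0.350% were called upward and 0.619% downward, so lists of this size say nothing particular by that. Of 44 measured genes of mTORC1, PI3K and AKT regulation 1 was higher at each time and 1 lower at 72 h: IRS2, an insulin receptor adaptor (-0.42 and -1.18). DEPTOR, an inhibitor of mTOR, had responses of -0.37 and 0.45 and was not called. Of 34 ATF4 and amino acid supply genes 2 were higher at each time, 1 was lower at 24 h and 2 at 72 h (SLC7A11 and VLDLR). Of 33 glycolysis and hypoxia genes 2 were higher at each time. HK2, a hexokinase, had responses of 2.16 and 1.26 without a called change. Of 50 lysosome and autophagy genes 7 were higher at 24 h and 6 at 72 h, with CTSH, a cathepsin, at 1.12 and 1.73 and MITF at 1.59 and 2.29.
The lists of metallothioneins and oxidative stress (18), heat shock and unfolded protein response (29) and CDK inhibitors and cell death genes (31) had 1 gene higher at each time, which was HSPA6 in the heat shock list. CDKN1A, the p21 inhibitor, had responses of 0.76 and -0.10.

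**Figure D5:**
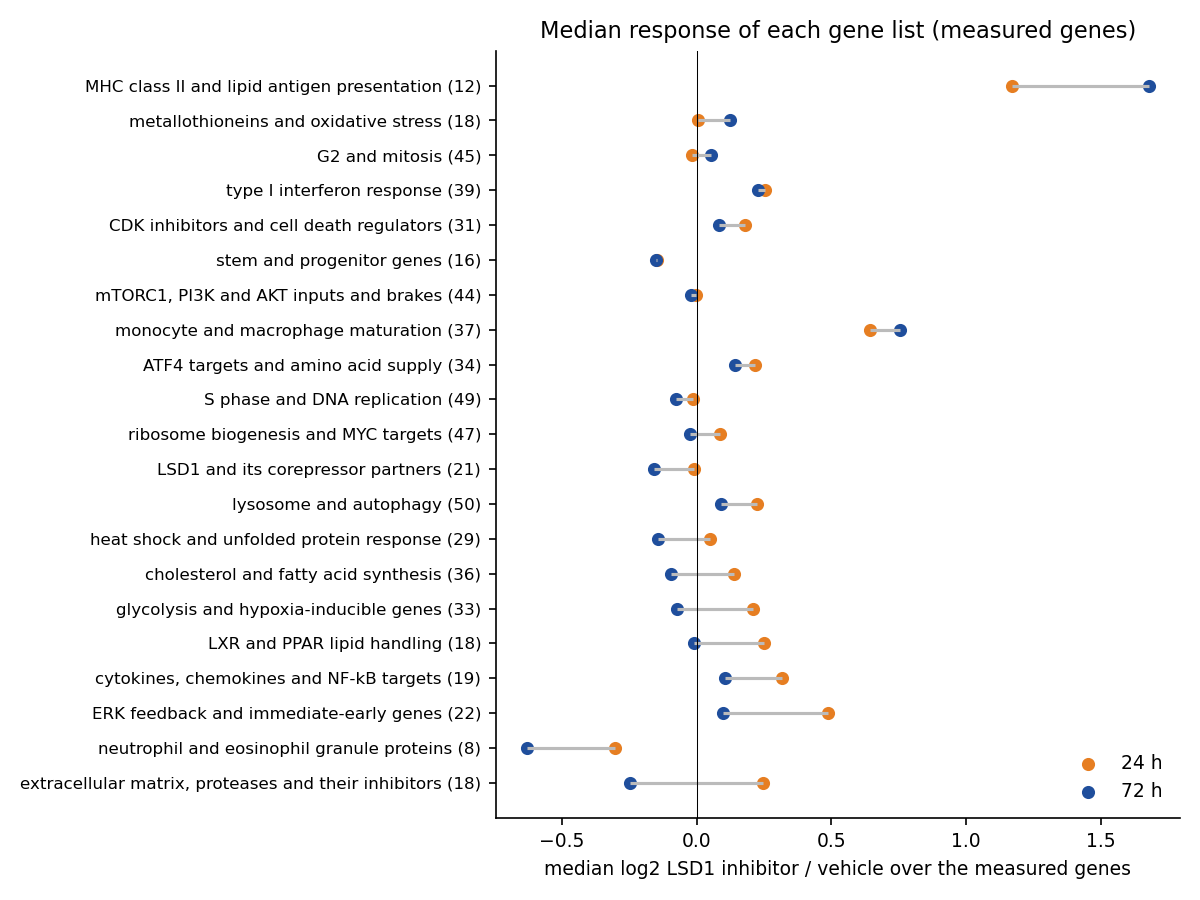
Median log2 ratio of inhibitor over vehicle at 24 h and at 72 h for each of the 21 gene lists, with the number of measured genes in parentheses. MHC class II and lipid antigen presentation goes from 1.17 to 1.68 and the matrix list from 0.25 to -0.25.

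Among the 238 genes that reached 2 CPM at 72 h only, 13 were higher at both times and 3 late higher, 6 were lower at both times, 3 late lower and 1 lost lower. Another 20 were unresolved, and 1 was called in opposite directions: RNase_MRP (-1.23 and 1.04), a name without a current symbol. Some of the 238 with the highest 72 h responses follow. PIGR, the transporter of polymeric immunoglobulins, was at 0.447 and 2.56 CPM at 24 h and at 0.411 and 5.48 at 72 h, and MAF, a bZIP factor of macrophages, at 0.468 and 2.40 and then at 0.531 and 4.34. The change of PIGR (1.19) was called and that of MAF (0.68) was not. APOL3, IRS1 and DENND11 had responses of 2.66, 2.47 and 1.90 at 72 h and of 2.49, 1.84 and 1.23 at 24 h. A gene that passes through its high library only had to differ, so these support no count. The same limit holds for some genes counted further above. Among those well under 2 CPM in vehicle at both times were CD14 (0.787 and 0.580 CPM), CD86 (0.723 and 0.580), CD1C, CD1A, GBP2 and CADM1. So were LY96, GIMAP4, RGMB, KCNK13, SLC7A8, FCGR2B and ICAM1. SPRY4, HSPA6 and CCL2 were also under 2 CPM in vehicle at both times. All these genes passed through the inhibitor libraries and had to differ. ROS1 (1.11 and 0.312 CPM with inhibitor) passed through the vehicle libraries.

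In KASUMI-1 the same difference was taken from 6 to 72 h, so the first times do not match and no comparison of the lines is made. Among 10800 genes measured there, 128 had an upward and 29 a downward change. Of the 39 genes upward in THP-1, 24 were measured in both KASUMI-1 pairs, and 20 of these had a KASUMI-1 change above 0 (median 0.44, against 0.10 over all genes measured in that line). Of the 69 downward genes 24 were measured, and 13 had a change below 0 (median -0.10). Because the median over all genes in KASUMI-1 was itself above 0, neither count is read as agreement between the lines. LYZ had a KASUMI-1 change of 1.29 and S100A9 one of 0.13, while S100A12 had at most 6 reads in any KASUMI-1 library and is given no value.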

How the data were processed

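RNA was sequenced from 8 libraries, 4 of them THP-1, each prepared from 500 ng of total RNA (TruSeq, per the labels). Raw counts per gene were deposited as 1 table, made with featureCounts 1.5.2 per the file headers, on gene models of Ensembl release 54 and NCBI build 36. The submitters' processing notes also name TopHat2 2.0.10, FastQC 0.10.0, Subread, edgeR and hg18. The recorded command sets no strand option and no option for reads that map to several places, so antisense partners are not separated and close copies may be undercounted. No read filter is given in the sources used here.

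Counts were scaled by TMM factors over all 8 libraries (edgeR 4.0.16, R 4.3.3). Log2 ratios used a prior count of 2. Intervals at 1 time are exact conditional binomial, and those of the change of response are Wald intervals from the 4 counts plus 0.5 reads. Both cover counting error only, as there is no replicate. Reads carry no molecular identifiers. In a library with 3 reads or fewer the plain ratio is given. The procedure was tested on simulated data. There is 1 library per condition, so the change has 0 residual degrees of freedom, and no label says how many cultures a library holds.

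The members, the 21 lists (823 entries, 626 measured) and the tests were chosen with earlier results of these data known. Named were KDM1A, GFI1, CD86, ITGAM, CD14, CSF1R, KIT and MYC, up to 8 genes per class with a symbol and a mean of 5 CPM in both pairs (by size of the change, or by the smaller response for sustained classes), 6 per list by size of the change, the 6 highest at 72 h only, and the genes next to each limit. Members of the classes outside this rule are named with their values already seen. Some genes that the rule names are not reported here. Of the genes measured 10578 had a current symbol, some through an older name. Alternatives were other scalings, prior counts of 0.5 and 5, filters, a 3-fold limit and GC centring.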

Additional observations from a re-analysis of the deposited data

Results flagged for a closer look

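Some genes differed from vehicle in opposite directions at the 2 times, with both counting intervals on opposite sides of equality and a called change of response. With 1 library per condition the difference between times was not tested. Apart from the feature of the opposite class, there were 35 such genes, 29 of them downward and 6 upward. Values follow for those in a late or lost class and those that the naming rule chose. NPTX1, SRC, RGS16, NAB2, BHLHE40 and 7SK, described above, also met these conditions. Like LAMB3, COL8A2 and IER2 below, they were 2-fold at neither time, so their opposite signs follow from the called change itself. AXL went from 0.97 to -1.14, a change of -2.11, and DLX3 from 1.31 to -0.57, a change of -1.88. LINC03040 had a change of -1.66 (1.24 to -0.41), CAP2 of -1.52 (0.51 to -1.01) and LRRC4 of -1.35 (0.32 to -1.03). The laminin chain LAMB3 went from 0.46 to -0.80 (-1.26), the collagen COL8A2 from 0.24 to -0.87 (-1.11) and IER2 from 0.47 to -0.62 (-1.08).

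In the upward direction the late rises were names without a current symbol. SSU_rRNA_5 went from -0.46 to 1.08 (1.54), AC044839.16-1 from -0.91 to 1.02 (1.93), AL163011.3 from -0.57 to 1.4995 (2.07) and AC112777.7 from -0.75 to 1.33 (2.09).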

How the results depend on the processing

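Counts of calls and classes were recomputed under 10 other settings and GC centring, which was added after the data were seen. All 14 counts stayed within 1.5 times under RLE size factors, TMM over the THP-1 libraries, a prior count of 0.5 and no counting interval. The single lost fall became 0 with library totals, a prior count of 5 or GC centring and 2 with a mean of 2 CPM in either pair, where the opposite class also held 2. GC centring left 40 downward changes, so that upward changes made up 49.4% of called changes instead of 36.1%. With library totals the median 72 h ratio of all genes was -0.13 instead of -0.02, and 287 genes were higher and 214 lower at 72 h. Rises then made up 57.3% of the 72 h calls instead of 69.0%.

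With a mean of 5 CPM in both pairs, which tests fewer genes, 196 genes were higher and 22 lower at 24 h, 81 lower at 72 h, 31 changed downward, 15 were sustained lower, 9 late lower, 2 lost higher, 0 lost lower, 0 opposite and 169 unresolved. With no filter the counts were 610 and 269 at 24 h, 673 and 485 at 72 h, 209 upward and 275 downward changes, 384 and 89 sustained higher and lower, 59 and 112 late, 45 and 43 lost, 2 opposite and 828 unresolved. At 3-fold they were 129 and 6 at 24 h, 155 and 29 at 72 h, 19 and 8 changes, 107 and 5 sustained, 3 late higher and 3 late lower, 0 and 0 lost, 0 opposite and 89 unresolved. No called change of a named gene turned its sign. Over all settings S100A12 ranged from 4.42 to 4.60, STS from 1.53 to 1.63, AXL from -2.16 to -2.01 and COL18A1 from -1.23 to -0.93. No replicate could be left out. No paired analysis was possible because each condition holds 1 library and the ratio within a time is the only pairing.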
